A study of Gallus gallus with 24 samples.

Results

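The upper follicle sheath, part of the wall of the feather follicle, was compared with the collar epithelium, which forms the feather. Both tissues came from the long tail (sickle) feathers of adult chickens. The comparison took the 8 libraries labelled with these 2 tissues from the 24 libraries of the series: 4 of upper sheath and 4 of collar, one of each from every bird. The birds were 2 males (numbers 53 and 68 in the labels) and 2 females (52 and 120). No treatment, strain or genotype is given in the labels, and "adult" is the only age. The other 16 libraries came from the lower follicle sheath, the papilla ectoderm, the pulp and the dermal papilla of the same birds. Polyadenylated RNA was sequenced after TRIzol extraction with the Illumina TruSeq kit.

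A feather follicle is a deep tubular pocket of skin. Its wall is lined by epidermis and backed by dermis, with muscle, vessels and nerves running to it. At the base of the pocket lies the collar, a ring of epithelium whose cells divide, move upward, fold into barb ridges and finally harden as they fill with feather corneous proteins. The comparison therefore sets a standing wall of mixed tissue against an epithelium that is building a feather. In bulk samples such as these, fewer cells of a type and less RNA per cell cannot be told apart.

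The files list genes by Ensembl identifier and give no names. The only name table at hand, from RefSeq, matched 0 of the 17108 identifiers, so no gene here is given a name, a function or a place in the genome. The tissues could not be checked against known marker genes for the same reason. Results are therefore given for sets of genes, for whole tissues, and for 4 genes by identifier.

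The upper sheath libraries held 20864990 to 27247160 counts and the collar libraries 17410206 to 24604975. In the upper sheath 14565 to 14887 genes had at least 1 count, against 14083 to 14348 in the collar, with no overlap between the tissues. The number of most abundant genes that together held 50% of the counts was 623 ± 52.7 in the upper sheath and 477 ± 123 in the collar (SD, n = 4 each). It ran from 552 to 672 in the upper sheaths and from 298 (female 52) to 568 in the collars, so the tissues overlapped, and in male 53 it was 552 in the upper sheath and 568 in the collar. Libraries of one tissue resembled each other closely. Spearman's rho over the 12816 genes tested was 0.966 to 0.984 between upper sheaths, 0.917 to 0.976 between collars and 0.709 to 0.778 between a sheath and a collar. These values describe the libraries. They are correlations across genes, which are not independent replicates.

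The 2 tissues differed in most of the genes that could be tested. By edgeR's quasi-likelihood test with the bird as a block, 7787 of 12816 genes (60.8%) passed an adjusted p of 0.05. Of these, 3999 (31.2%) were higher in the upper sheath and 3788 (29.6%) were higher in the collar. All 4 upper sheaths lay above all 4 collars for 3874 genes, and all 4 collars lay above all 4 upper sheaths for 3315. Together these were 56.1% of the genes tested. Among the called genes, 1019 had libraries that overlapped between the tissues.

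The near balance in the number of calls did not extend to their size. Tested against a minimum difference of 2-fold with edgeR's glmTreat, 3819 genes (29.8%) passed: 2481 (19.4%) were higher in the upper sheath and 1338 (10.4%) were higher in the collar. Among the 7787 called genes, an estimated fold over 4 was found for 2103 upper-sheath-higher and 814 collar-higher genes. Over 16-fold the numbers were 830 and 249, and over 64-fold they were 201 and 106. At the far end the balance turned, with 47 upper-sheath-higher and 49 collar-higher genes over 256-fold and 12 and 18 over 1024-fold. The upper sheath thus had the more genes over each fold up to 64, while the collar had as many or more over 256-fold and 1024-fold, where genes were few.

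**Figure D1:**
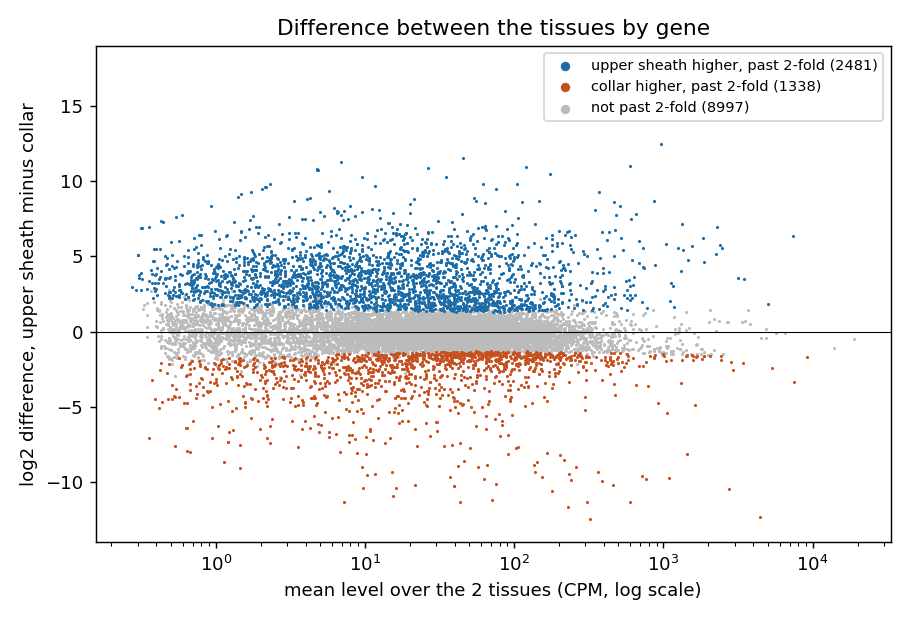
Log2 difference (upper sheath minus collar, vertical axis) against the mean level of the 2 tissues (CPM, log scale), 1 point per gene over 4 birds. The 2481 genes higher in the upper sheath past 2-fold fill the upper left and centre, and the 1338 collar-higher genes reach down to a log2 difference of -12.45.

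Direction went with abundance. Levels are given as CPM, the counts relative to library size after TMM scaling. Among the 3114 genes with a mean of 1 to 10 CPM over both tissues, 923 (29.6%) were higher in the upper sheath past 2-fold and 360 (11.6%) were higher in the collar. Among the 2025 genes at 100 CPM or more, 280 were higher in the upper sheath past 2-fold and 280 were higher in the collar. At the looser threshold with no minimum fold, the most abundant class held 480 upper-sheath-higher genes (23.7%) and 802 collar-higher genes (39.6%). CPM is not corrected for gene length, so these classes rank genes by their counts and not by transcripts per cell.

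The differing genes made up a large part of each tissue's RNA. The 2481 upper-sheath-higher genes held 29.3% ± 2.11 of the counts in the upper sheath and 3.12% ± 0.52 in the collar (SD, n = 4 each). The 1338 collar-higher genes held 5.91% ± 0.39 of the counts in the upper sheath and 25.8% ± 2.10 in the collar. Both sets were chosen on these libraries, so the gaps are a description of size. The 100 most abundant genes of the 2 tissues had 40 genes in common. Of the upper sheath's 100, 47 were higher there past 2-fold and 7 were higher in the collar past 2-fold. Of the collar's 100, 1 was higher in the upper sheath past 2-fold and 37 were higher in the collar. Over all genes tested, 19.4% were higher in the upper sheath past 2-fold and 10.4% were higher in the collar. Each list of 100 was ranked by level in 1 of the 2 tissues compared, so a tilt toward that tissue is partly built in.

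Few of the genes tested were silent in 1 tissue and active in the other. The filter on low counts had left out 4292 genes and kept only those with about 10 counts in at least 4 libraries. A gene at 0 in 1 tissue could thus be tested only with about that count in all 4 libraries of the other. The collar had 0 counts in all 4 libraries for 19 of the genes tested, and each of these had at least 10 counts in every upper sheath, with a median level of 2.96 CPM and a highest of 13.9 CPM. In the other direction, 6 genes had 0 counts in every upper sheath and at least 10 in every collar, with a median of 1.81 CPM and a highest of 14.5 CPM. A count of 0 over the 4 libraries allows a level of up to 0.0352 CPM in the collar and 0.0302 CPM in the upper sheath, for counting error only. Apart from 1 more gene at 0 in the upper sheaths, every other gene tested had at least 1 count in both tissues.

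The 4 genes given by identifier are the 2 in each direction with the largest fold among called genes whose tissues did not overlap and that reached a mean of 10 CPM in the higher tissue. ENSGALG00000011306.4 was the foremost upper sheath gene. It had 2909, 1941, 1314 and 1573 CPM in the upper sheaths of birds 53, 52, 68 and 120, and 0.205, 0.539, 0.0781 and 0.558 CPM in their collars. All 4 upper sheaths lay far above all 4 collars. The log2 difference was 12.46 ± 0.59 (SE, edgeR, adjusted p = 1.42e-05).

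ENSGALG00000001573.4 followed at a lower level. Its upper sheaths held 219.8, 41.0, 37.9 and 66.6 CPM in birds 53, 52, 68 and 120, and the collars held 2 counts in all, 1 each in birds 53 and 120. The ratio of summed counts was 3639 (95% exact interval 1007 to 30052, counting error only). Bird 53 stood well above the other 3 upper sheaths, and the tissues were far apart in all 4 birds. The log2 difference was 11.53 ± 0.37 (SE, edgeR, adjusted p = 1.19e-05).

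On the collar side, ENSGALG00000029144.1 was abundant and steady across birds. It had 4.87, 1.28, 1.81 and 0.702 CPM in the upper sheaths of birds 53, 52, 68 and 120, and 9251, 10168, 8427 and 7456 CPM in their collars. The log2 difference was -12.34 ± 0.67 (SE, edgeR, adjusted p = 1.72e-05). ENSGALG00000028706.1 had a fold of like size and varied widely among collars. Its upper sheaths held 0.0937, 0.171, 0.0724 and 0.0739 CPM in the same order of birds, and its collars held 3.08, 819, 509 and 1238 CPM. The collar of male 53 was above every upper sheath and yet far below the other 3 collars. The log2 difference was -12.45 ± 0.91 (SE, edgeR, adjusted p = 4.06e-05), and it was -12.85 without that bird.

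**Figure D2:**
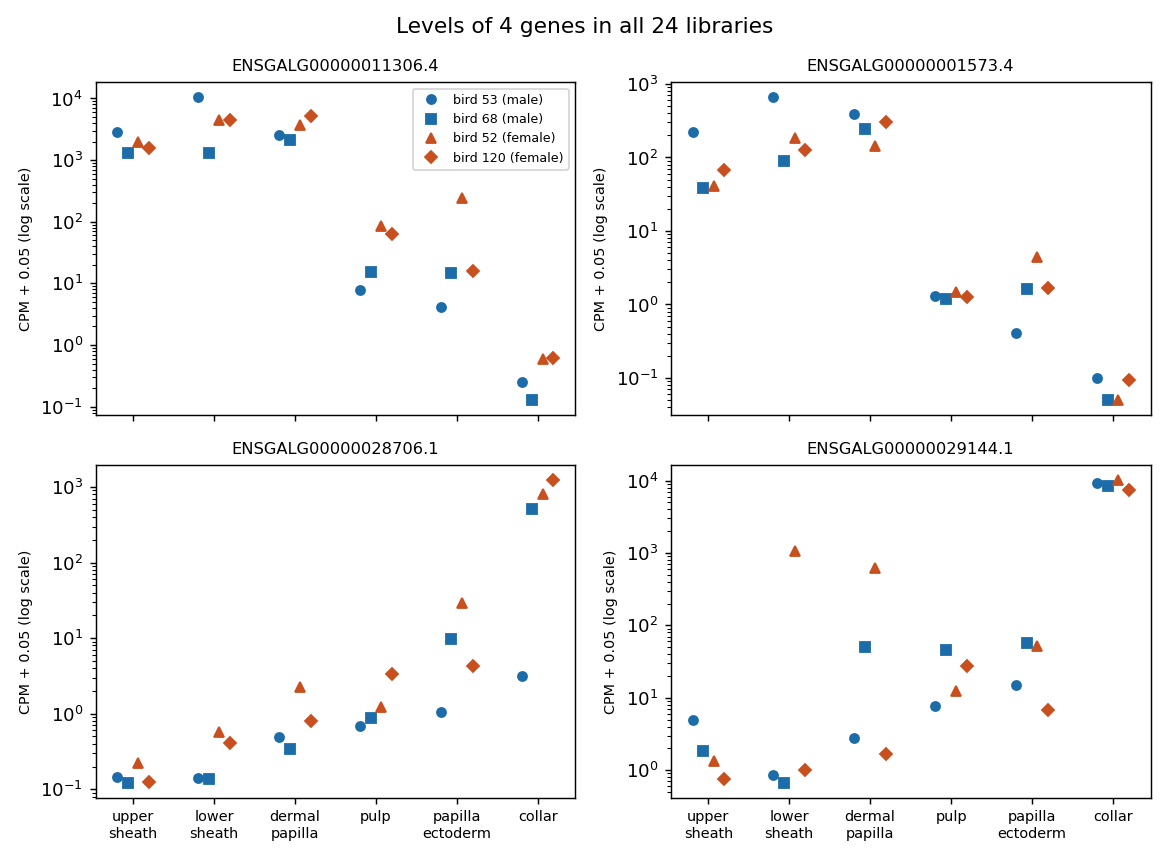
Level of the 4 genes (CPM with 0.05 added, log scale) in each of the 24 libraries, 1 point per bird, with upper sheath at the left and collar at the right. The top 2 genes are high in both sheaths and the dermal papilla, and the bottom 2 are high in the collar, where ENSGALG00000028706.1 is at 3.08 CPM in male 53 and at 509 CPM or more in the other 3 birds.

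The same 4 genes were read in the tissues that played no part in choosing them. ENSGALG00000011306.4 averaged 5174 ± 3782 CPM in the lower sheath and 3376 ± 1356 CPM in the dermal papilla, against 70.4 ± 118 in the papilla ectoderm and 42.3 ± 36.6 in the pulp (SD, n = 4 each). Its spread in the lower sheath, 1327 to 10387 CPM, took in most of the range of the upper sheath. ENSGALG00000001573.4 was likewise higher in the lower sheath and the dermal papilla, with 264 ± 264 CPM in the lower sheath, 272 ± 105 in the dermal papilla, 1.98 ± 1.70 in the papilla ectoderm and 1.26 ± 0.11 in the pulp. By their means, both genes were thus higher in the lower sheath and the dermal papilla than in the upper sheath.

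The 2 collar genes were low in all 4 other tissues, with an exception in 1 bird. ENSGALG00000028706.1 averaged 10.9 ± 12.4 CPM in the papilla ectoderm and 0.268 CPM in the lower sheath, 0.919 in the dermal papilla and 1.497 in the pulp. ENSGALG00000029144.1 averaged 32.6 ± 25.5 CPM in the papilla ectoderm and 23.2 ± 17.0 CPM in the pulp. In female 52 it reached 1061 CPM in the lower sheath and 617 CPM in the dermal papilla, against 0.621 to 0.948 CPM and 1.63 to 49.9 CPM in the same tissues of the other 3 birds. The upper sheath of that bird had 1.28 CPM. Other collar genes were also raised in the lower sheath and dermal papilla of female 52, as given below.

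The most extreme collar genes did not form one uniform group. Among 81 genes higher in the collar past 2-fold, over 64-fold by estimate and at a mean of 10 CPM or more there, 27 (33.3%) ranged over more than 10-fold among the 4 collars. Of 145 upper-sheath genes chosen in the same way, 10 (6.90%) had such a range among the 4 upper sheaths. Of the 27 collar genes 24 were lowest in male 53. Their summed level was 293 CPM in the collar of male 53, 4744 in male 68, 9029.7 in female 52 and 13049 in female 120. Both male collars lay below both female collars for 21 of the 27, and for 24 of the other 54 of the 81. The same share over all genes tested was not counted, and the 27 were picked for their range among these collars. These counts therefore carry no test of sex.

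The remaining 54 of the 81 genes ranged over no more than 10-fold among the collars. They summed to 26280.2, 24856, 32206 and 31764 CPM in the collars of birds 53, 68, 52 and 120. Of the sum in male 53, 9251 CPM came from ENSGALG00000029144.1 alone. The median level of the 54 genes was 92.0, 94.8, 138 and 106 CPM in the same order of birds, lowest in male 53. After TMM scaling both males lay below both females in the sum and in the median. As a share of the unscaled counts the 54 genes held 2.94%, 2.588%, 2.594% and 3.07% in the same order of birds. By that measure male 53 lay above female 52, so the order of the sums by sex depends on the scaling. In the upper sheaths the 27 genes summed to 4.45 to 6.54 CPM and the 54 genes to 33.3 to 156 CPM, 0.0813% and 0.24% of their collar means. The highest upper sheath sum was that of male 53, where 22 of the 54 genes had their highest upper sheath level. How often male 53 was the highest upper sheath over all genes tested was not counted. In female 52 the 54 genes summed to 3531 CPM in the lower sheath and 1558 CPM in the dermal papilla. The same tissues of the other birds held 26.9 to 73.1 CPM and 78.2 to 188 CPM. The median level in female 52 was 6.10 and 2.95 CPM, against 0.136 to 0.237 and 0.204 to 0.275 CPM in the other birds. Across the 4 birds the 54 genes summed to 1083 to 1254 CPM in the pulp and 327 to 676 CPM in the papilla ectoderm. Their median levels there were 0.90 to 1.64 CPM and 0.863 to 2.43 CPM. The split into 27 and 54 genes was made after the values were seen and carries no test.

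**Figure D3:**
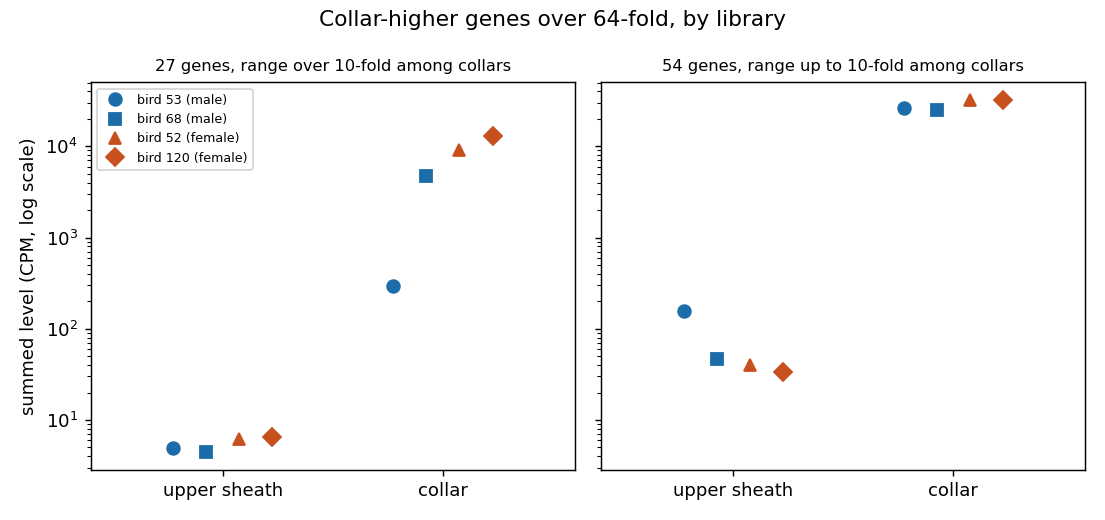
Summed level (CPM, log scale) of the 27 extreme collar genes that ranged over more than 10-fold among collars (left) and of the 54 that did not (right), 1 point per library. In the left panel the collar of male 53 is at 293 CPM and the other 3 collars are at 4744 CPM or more, while in the right panel the 4 collars lie between 24856 and 32206 CPM.

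Most called genes had the same sign in every bird, though the calls were made on these same birds and favour such genes. In all 4 birds the difference had the same sign for 3964 of the 3999 genes called higher in the upper sheath and for 3667 of the 3788 called higher in the collar, with 0.5 CPM added before the logarithm. Over all genes tested the share with one sign in 4 birds was 70.8%. For the genes higher in the upper sheath past 2-fold, the median log2 difference by bird was 2.47 to 2.61. For those higher in the collar it was -1.79 in male 53 and between -1.95 and -2.18 in the other 3 birds. Of 1027 such genes with a mean of 10 CPM or more in the collar, 39 ranged over more than 10-fold among collars. Male 53 was lowest for 32 of these, and birds 52, 68 and 120 for 2, 3 and 2. The median ratio to the other collars over the 1027 genes was 0.82 and 0.91 in males 53 and 68. It was 1.33 and 1.09 in females 52 and 120. These ratios depend on the TMM factors by which the counts were divided. The factors were 1.12 and 1.04 in the collars of males 53 and 68, and 0.806 and 0.967 in those of females 52 and 120. The same ratio over all genes tested is not given here, so no lower level in males is read from it.

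Choosing genes in one sex and reading them in the other gave a check in libraries that had no part in the choice. With the 2 males alone, 2188 of 12961 genes were higher in the upper sheath past 2-fold (edgeR's glmTreat). Of these, 2152 (98.4%) had the same sign in both females and 1929 (88.2%) exceeded 2-fold in both. The 1088 genes higher in the male collars had the same sign in both females for 1060 (97.4%). With the 2 females alone, 2650 of 13022 genes were higher in the upper sheath, of which 2587 (97.6%) had the same sign in both males. Of the 1447 genes higher in the female collars, 1358 (93.8%) had the same sign in both males and 971 (67.1%) exceeded 2-fold in both. The lowest share of these was for collar genes chosen in females and read in males. Of the genes chosen in males, 85.8% of the upper-sheath-higher and 78.1% of the collar-higher were also called in females. Of those chosen in females, 70.8% and 58.7% were also called in males. The same shares over all genes tested were not counted, and each of these fits rested on 2 birds.

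The test of sex against tissue asked whether the sheath-collar difference itself differed between the 2 males and the 2 females. It called 135 of 12816 genes (1.05%) by edgeR's quasi-likelihood test: for 114 (0.89%) the log2 difference, upper sheath minus collar, was the more positive in males, and for 21 (0.164%) it was the more positive in females. For 106 of the 114 genes both male collars lay below both female collars, and both male upper sheaths lay above both female upper sheaths for 52. The 114 genes were called on these same libraries, so such separation is partly built into the choice. The same shares over all genes tested were not counted, and these counts carry no test of their own. For the 114 genes the median log2 difference was 5.25 in males and 2.98 in females, and 94 of them were upper-sheath-higher genes overall. The counts of calls moved with single birds and with the block. Without 1 bird, its sex is left with a single bird, which is assumed to vary like the others, and 1 residual degree of freedom is left. There were 0 in either direction without female 52 (1208 genes at an unadjusted p under 0.05) and 0 without female 120 (3024 genes), 414 and 123 without male 68, 164 and 50 without male 53, and 1 and 0 with no replicate block (1326 genes), against 412 and 90 with DESeq2 and all 4 birds.

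The other tissues show what the 2 sets of genes had in common beyond the pair that defined them. For the 2481 upper-sheath-higher genes, the lower sheath stood nearer to the upper sheath than to the collar on the log2 scale in 2326 (93.8%), the dermal papilla in 2035 (82.0%), the pulp in 1801 (72.6%) and the papilla ectoderm in 1649 (66.5%). All 4 of these tissues lay on the upper sheath's side of the midpoint for 1385 genes (55.8%) and all 4 on the collar's side for 91 (3.67%). The upper sheath had the highest mean of all 6 tissues for 662 of the 2481 (26.7%). For those 1385 genes the collar was thus the low tissue, and the upper sheath 1 of several higher ones.

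For the 1338 collar-higher genes the lower sheath and the dermal papilla were about as low as the upper sheath, with median log2 levels 0.09 and 0.04 above it, and the papilla ectoderm and the pulp stood 0.63 and 0.37 above it. The lower sheath stood nearer to the upper sheath in 1286 (96.1%), the dermal papilla in 1175 (87.8%), the pulp in 936 (69.96%) and the papilla ectoderm in 837 (62.6%). The collar had the highest mean of the 6 tissues for 1047 (78.3%). Among the other 4 tissues the papilla ectoderm, an epithelium like the collar, was the highest for 738 (55.2%), the pulp for 341 (25.5%), the lower sheath for 168 (12.6%) and the dermal papilla for 91 (6.80%). The papilla ectoderm exceeded the collar itself for 222 genes (16.6%). Both sets of genes were chosen on the upper sheath and collar libraries, and the 16 libraries of the other tissues took no part in that choice. A top rank of the collar or the upper sheath among the 6 tissues is thus partly built into the choice. The same shares over all genes tested are not given here.

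A second pair of wall and epithelium, the lower sheath and the papilla ectoderm, shares birds but no library with the first. By the same test 2067 of 12818 genes (16.1%) differed there, 1177 (9.18%) higher in the lower sheath and 890 (6.94%) higher in the papilla ectoderm. In the papilla ectoderm the 10 most abundant genes held 25.5% to 42.7% of the counts, against 9.75% to 13.2% in the collar. Its libraries held 12514383 to 31404619 counts. What part this had in the smaller number of calls was not tested. Most of these calls were lost when male 68 or female 120 was left out: without male 68 they were 19 and 0 (3204 genes at an unadjusted p under 0.05), and without female 120 to 24 and 2, while DESeq2 with all 4 birds gave 2358 and 1975. Of 12450 genes tested in both pairs, 792 were higher in the sheath in both, 20.2% of the first pair's sheath-higher calls and 72.7% of the second's. A further 556 were higher in the epithelium in both, 15.5% of the first pair's collar-higher calls and 64.7% of the second pair's papilla-ectoderm-higher calls.

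The sign carried over further than the calls. Of 2435 genes higher in the upper sheath past 2-fold and tested in the second pair, 2140 (87.9%) were higher in the lower sheath than in the papilla ectoderm, with a median log2 difference of 1.08 there and 3.23 in the first pair. Of 1186 collar-higher genes, 223 (18.8%) were positive, with medians of -0.94 and -2.12. Over all 12450 genes 51.3% were positive. Opposite calls were few: 62 genes were higher in the upper sheath and in the papilla ectoderm, and 84 were higher in the collar and in the lower sheath.

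Whether the 2 differences were unequal was tested gene by gene over the 16 libraries. The difference of the differences, first pair minus second, passed for 4283 of 13447 genes (31.9%), with 2682 positive (19.9%) and 1601 negative (11.9%). Of the 2516 positive genes that both pairs could test, 2028 were called higher in the upper sheath than in the collar, and 1752 of these were not called in the second pair. Of the 1425 negative genes that both pairs could test, 1064 were called higher in the collar, 957 of these were not called in the second pair, and 649 of the 1064 had the opposite sign there. The opposite sign was also held by 635 of the 2028 positive genes. The medians over the negative genes were -1.09 in the first pair and 0.37 in the second, and over the positive genes 2.22 and 0.15. The first pair's difference is part of the quantity tested, so these counts describe the calls and carry no test of their own. The median over all genes was 0.16 with TMM scaling and 0.04 with RLE scaling, where 2357 genes were positive and 1938 negative. Without male 68 the counts were 1431 and 889, and without female 120 they were 1046 and 740.

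**Figure D4:**
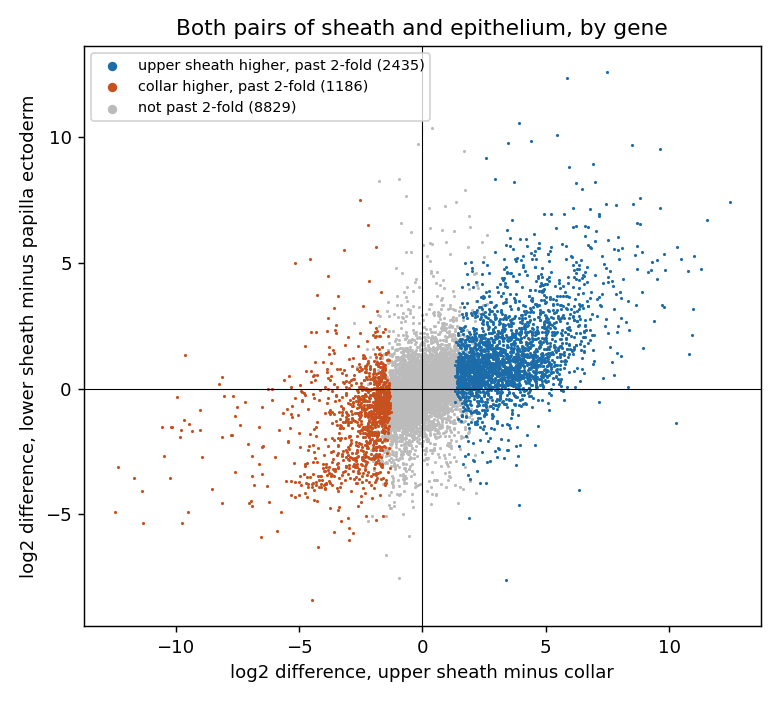
Log2 difference between lower sheath and papilla ectoderm (vertical axis) against that between upper sheath and collar (horizontal axis), 1 point per gene tested in both pairs. Of the 2435 upper-sheath-higher genes 2140 lie above zero, of the 1186 collar-higher genes 223 do, and the differences of the second pair are mostly the smaller.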

How the data were processed

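The authors deposited raw whole-number counts per gene, 1 file for each of 24 libraries, per the file headers and values. STAR 2.4.1d, HTSeq 0.6.0, edgeR and the build galGal4 are named in the submitters' processing notes; of the strand setting, annotation release and read filters, none is stated in the labels or headers used here, so counts of overlapping, antisense or near-identical genes are uncertain. Counts were used as deposited. The 2 tissues were compared in R 4.3.3 with edgeR 4.0.16 (quasi-likelihood F test; glmTreat for a 2-fold minimum), TMM scaling, filterByExpr with a minimum count of 10, and Benjamini-Hochberg adjustment at 0.05 over all genes tested. The filter kept 12816 of 17108 genes and left out 0.146% of the counts. The bird was a block, since the labels give each tissue from the same 4 birds, with 3 residual degrees of freedom. Deviations from the tissue mean correlated between the 2 libraries of a bird at r = 0.266 to 0.307. SEs were derived from the F statistic.

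On simulated counts with 12739 genes tested, the main test found 98 of 98 genes changed 4-fold, with 10 false calls. At the same size the 2-fold test found 84 of 99 (12737 genes tested, 0 false calls), the sex test 72 of 100 (12742, 7), the lower pair 98 of 99 (12769, 15) and the difference of differences 98 of 100 (13269, 3). The simulation gave every gene the same dispersion and changed few genes, in balance up and down. In the data most genes tested in the main comparison were called, and spread differed between genes. These numbers therefore describe the simulated setting and not the error rates in the data. Within-tissue pairs of libraries differed far beyond sampling noise (median chi-square per gene 5.15 to 31.7), so none was counted as a repeat. One count was worth 0.0362 to 0.0598 CPM in the 8 libraries. Intervals cover counting error only. Alternatives were the fit without the block, RLE scaling, no filter, DESeq2 1.42.0, all 24 libraries, each sex alone and each bird left out. Leaving out birds in the test of sex was added after seeing the data. The 31 gene lists planned by symbol could not be joined to the identifiers and were not used. Genes were named by a rule that allows, where no symbols exist, 2 identifiers in each direction of the main comparison: called, tissues not overlapping, at least 10 CPM in the higher tissue, largest fold. The comparison and its rules were chosen with earlier results of these data known.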

Additional observations from a re-analysis of the deposited data

Results flagged for a closer look

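In 7 of the 36 groups of 4 libraries examined, 1 library stood apart by Dixon's ratio (the gap to its nearest neighbour over the group's range). The cutoff flags about 1 in 20 groups where values are normal and groups independent. These groups share birds and libraries, so 7 of 36 is a description and carries no test. ENSGALG00000001573.4 was high in male 53 in the upper sheath (219.8 CPM, ratio 0.842) and in the lower sheath (655 CPM, ratio 0.839). ENSGALG00000011306.4 was high in the papilla ectoderm of female 52 (247 CPM, ratio 0.951). ENSGALG00000029144.1 was high in the lower sheath (1061 CPM, ratio 0.9997) and the dermal papilla (617 CPM, ratio 0.922) of female 52. The 10 most abundant genes took 13.2% of the counts in the collar of female 52 and 9.75% to 9.83% in the other 3 collars (ratio 0.977). The 54 steadier collar genes summed to 156 CPM in the upper sheath of male 53 and to 33.3 to 46.8 CPM in the other 3 (ratio 0.89); 43.8 of the 156 CPM came from 1 gene.

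The sheath-collar difference was called unequal between the 2 males and the 2 females in 114 genes where it was more positive in males. It was more positive in females in 21. These calls were not stable: they were 1 and 0 with no replicate block, and 1 and 0 with all 24 libraries. The sheath-collar difference differed from the difference between lower sheath and papilla ectoderm in 2682 genes on the positive side and 1601 on the negative side. Both were tested as differences of differences.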

How the results depend on the processing

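Counts for the upper sheath against the collar stayed within 1.5 times of the reported ones in both directions under every alternative run, from 3423 to 4682 and 2850 to 4257 genes, and past 2-fold from 2188 to 2721 and 1064 to 1462. Leaving out 1 bird gave 3423 to 4040 and 2850 to 3706, and past 2-fold 2236 to 2555 and 1064 to 1331. With no replicate block they were 3857 and 3767. The 4 named genes kept their direction and call, with adjusted p at most 0.00137.

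The sex test gave 412 and 90 genes with DESeq2, 308 and 55 with no filter, 1 and 0 with all 24 libraries (1870 at an unadjusted p under 0.05), 1 and 0 with no replicate block (1326), and 0 to 414 and 0 to 123 without 1 bird. The lower sheath against the papilla ectoderm gave 2358 and 1975 with DESeq2, 3058 and 3152 with all 24 libraries, 1640 negative with no replicate block, and 19 to 1198 and 0 to 1316 without 1 bird. The difference of differences gave 2463 negative with all 24 libraries, and 1046 to 2773 and 740 to 1700 without 1 bird. Why these counts moved was not tested; fits without a bird have fewer residual degrees of freedom. Dropping the block moved no other count by over 1.5 times, and it kept 3775 of the 3999 and 3620 of the 3788 calls of the main comparison. Depth limits statements on genes near 0 counts.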
